A study of Homo sapiens with 4 samples.

Results

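The small GTPase RAN, the regulators that load and unload it, and the carrier proteins it directs through nuclear pores were followed in IMR90, a line of human lung fibroblasts, after knockdown of HMGB1. The 10 genes RAN, RCC1, RANGAP1, RANBP1, NUTF2, KPNB1, KPNA2, TNPO1, XPO1 and CSE1L were selected by symbol among the 63677 genes of the count tables, and all 10 were found once on the primary chromosomes. The set was picked from a comparison of these same libraries in which RAN had already been seen to be low, so the values below describe it and the adjusted p-values are no independent evidence for it. RNA-seq was available from 2 control libraries, transfected with a non-targeting siRNA (NTC), and 2 libraries transfected with siRNA against HMGB1, all with the RNAiMAX reagent for 72 h. Each group had 1 library of the isolate I90-10 (replicate 1) and 1 of I90-79 (replicate 2), both of the same line and at an early passage, so every contrast rests on 2 isolates and carries no further biological replicate. The study's methods give 2 different siRNAs for this line, and the labels do not say which one a library received.

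Transport through the nuclear pore takes its direction from RAN. The exchange factor RCC1 sits on chromatin and loads RAN with GTP in the nucleus, whereas RANGAP1, helped by RANBP1, triggers GTP hydrolysis on the cytoplasmic side, and NUTF2 carries RAN-GDP back in. Importins such as KPNB1, with its adaptor KPNA2, and TNPO1 release cargo when they meet RAN-GTP, exportins such as XPO1 bind cargo together with it, and CSE1L returns the importin alpha adaptors to the cytoplasm. HMGB1 itself is a chromatin protein that shuttles across the nuclear envelope and uses XPO1 to leave the nucleus.

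Libraries held between 29861687 and 35317010 counted reads, and the 10 most abundant genes took 5.63% to 8.52% of them. The targeted gene, HMGB1, had 181 and 237 CPM (read counts scaled to a common library size with the TMM factors of edgeR) in the control libraries and 15.96 and 18.9 CPM in the knockdown libraries, a log2-fold change of −3.59 (SE 0.19, edgeR quasi-likelihood test, adjusted p = 0.00751). It lost its call without either of the knockdown libraries (log2-fold change −3.47 with an adjusted p of 0.0487, and −3.71 with 0.0324). Defining fibroblast genes (COL1A1, VIM, DCN and others, 10 of 10 detected) summed to between 18862 and 34802 CPM. Markers of leukocytes summed to at most 0.346 CPM, with CD3E and LYZ at 0 in every library, and those of epithelium to between 10.3 and 24.5 CPM with KRT5, KRT14 and SCGB1A1 at 0. The endothelial list summed to between 136 and 150 CPM, nearly all of it TEK (131 to 149 CPM), with CDH5 at 0 and VWF at 1.36 and 0.923 CPM in control against 4.16 and 2.59 CPM in knockdown libraries (called up with the replicate block described below). The smooth muscle list summed to 196 and 120 CPM in control against 109 and 92.9 CPM in knockdown libraries, with LMOD1 and CNN1 called down with that block. Of its 5 genes, 4 had a fold change below 0 and 1, DES (log2-fold change 0.508), above it. Among the 10 fibroblast genes LUM was called up and PDGFRB and THY1 down with the block, where 14.5% of all genes tested were called. The part of these marker genes in the results below was not tested.

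Across the 15398 genes tested, 31 met the limits of the call (adjusted p under 0.01, log2-fold change over 0.6 in either direction), which is 0.201% of them, and 0 of the 10 RAN cycle and transport genes were among these. The p of RAN and of TNPO1 was under 0.05 before adjustment, both in the direction of a decrease, where 28.3% of all genes tested reached that p in either direction. With the isolate as a replicate block in edgeR, which compares the libraries within each isolate, 14.5% of all genes were called, and RAN was the one gene of the 10 called, as downregulated. RUVs with 1 factor followed by DESeq2 called 10.4% of all genes, with RAN and TNPO1 downregulated among the 10. The groups did not overlap for 3 of the 10 genes (RAN, TNPO1 and RANGAP1, each lower upon knockdown), a share to be read against 59.9% of all genes tested. Of the 10, 4 had a fold change above 0 and 6 below it, with a median log2-fold change of −0.06 where that of all genes was −0.01. When 1 library was left out, this median rose above 0 only without control replicate 2 (0.011). It was −0.205 without control replicate 1, −0.039 without knockdown replicate 1 and −0.153 without knockdown replicate 2. With library totals in place of TMM scaling, 2 of the 10 lay above 0 and 8 below it.

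**Figure D1:**
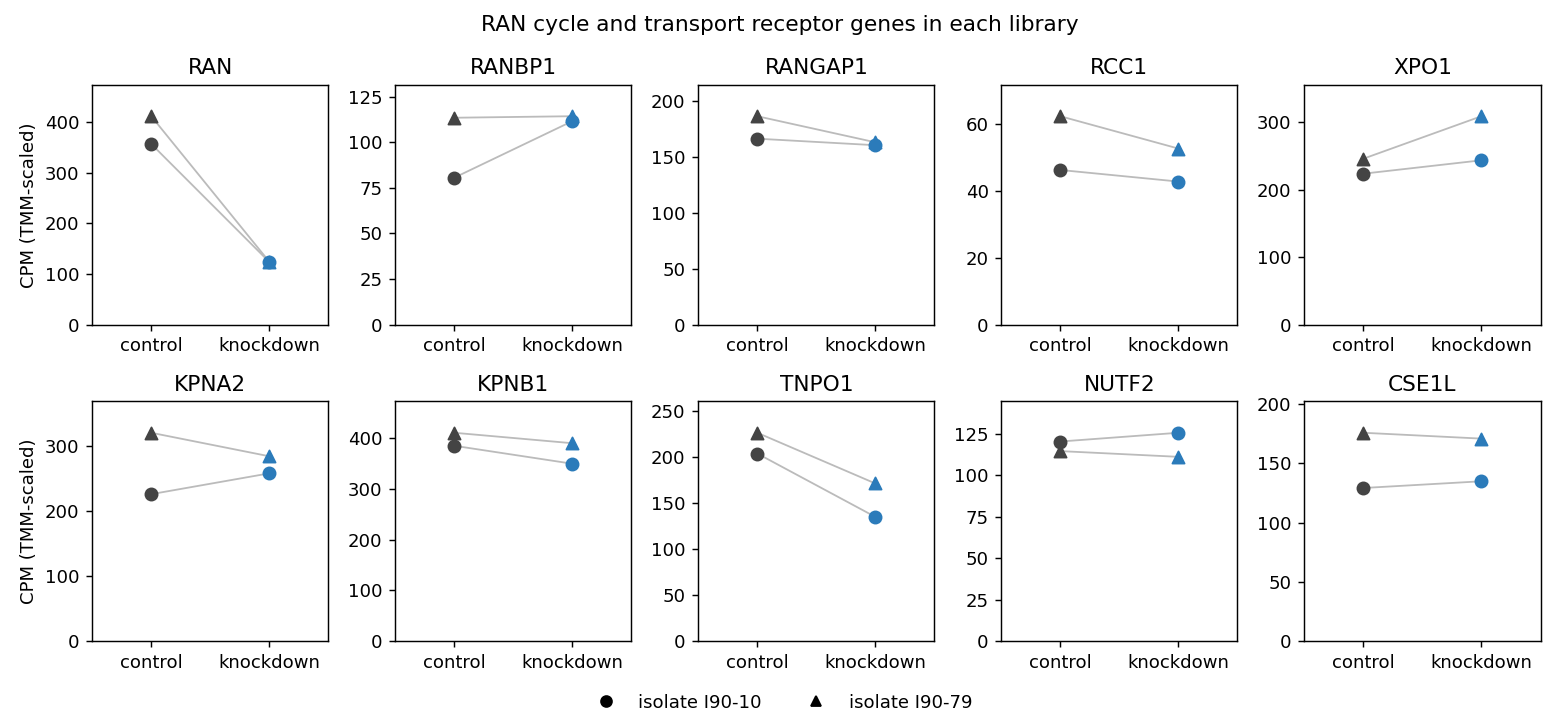
TMM-scaled CPM of each of the 10 genes (y axes, each starting at 0) in the control (grey) and HMGB1 knockdown (blue) libraries (x axes), with 1 point a library and lines joining the libraries of an isolate (circles I90-10, triangles I90-79). RAN lies at 357 and 412 CPM in control and at 124 CPM in both knockdown libraries, and TNPO1 is lower in both isolates. RANBP1 rises in I90-10 (80.5 to 112 CPM) and XPO1 in I90-79 (246 to 309 CPM). The remaining lines are flat or shallow, and in no panel do those of the 2 isolates cross.

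RAN (ENSG00000132341, hg19 chromosome 12, 131356424 to 131362223, plus strand) encodes the GTPase on which the whole cycle turns. It was counted 10488 and 15177 times in the control libraries and 3574 and 3878 times upon HMGB1 knockdown. In CPM these were 357 and 412 against 124 and 124. Both knockdown libraries lay far below both controls, and they differed from each other by only 0.01 on the log2 scale, where the controls differed by 0.21. The log2-fold change of RAN was −1.63 (SE 0.13, 95% interval −1.97 to −1.30), a 3.10-fold lower level. Its adjusted p was 0.0104, narrowly above the threshold of 0.01. Within the isolates the log2 difference was −1.53 in I90-10 and −1.73 in I90-79. With the replicate block RAN fell by 1.63 on the log2 scale (SE 0.10, edgeR quasi-likelihood test, adjusted p = 5.19e-05), and RUVs followed by DESeq2 gave −1.69 (adjusted p = 1.73e-29). Among all genes tested, 1.95% had a fold change as low or lower, and RAN ranked 53rd by p. In these bulk libraries, a smaller number of cells that express a gene and less of its RNA in each cell cannot be told apart.

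None of the exonic bases of RAN lie in another annotated gene. Its 9 annotated pseudogenes, whose sequence could take reads from it, together held 34, 48, 13 and 13 counts in the 2 control and the 2 knockdown libraries, at most 0.364% of the counts of RAN itself. Over the 10 genes 24 such pseudogenes were found, and those of the other 9 genes never exceeded 0.31% of their parent gene. The counts are of unique reads, so reads that fit a gene and its pseudogene equally well are missing from both. How many reads were lost in this way cannot be read from these values.

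The 3′ UTR of RAN is shown here because a 6-base word that it holds many times, GCAGTT, moved with the fold changes of all genes. The word was taken from an earlier search of these same libraries, so the numbers on it are a description. In the canonical transcripts of GENCODE v44, lifted to GRCh37 (the build also called hg19), RAN has 5 copies in 1752 bases of 3′ UTR, a number reached or exceeded in 0.995% of the 12357 UTRs examined. All 5 lie on the plus strand of chromosome 12 and are printed 5′ to 3′ as 26-base windows, with the word in capitals. The first, 163 bases after the stop codon, is at chr12:131360625-131360650, the second at chr12:131360680-131360705, the third at chr12:131361050-131361075, the fourth at chr12:131361430-131361455 and the fifth at chr12:131361700-131361725.
RAN copy 1: agtgaatgtgGCAGTTtaaaaaataa
RAN copy 2: gttttggaacGCAGTTgattccttga
RAN copy 3: aaatattagtGCAGTTaagctaaagc
RAN copy 4: aagttcttcaGCAGTTcacactacac
RAN copy 5: tattcttgtaGCAGTTaggaatcttg

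Among all 12357 genes, each with a 3′ UTR of 100 bases or more, 63.8% had no copy, and their median log2-fold change was 0.07. The median was −0.10 over the 2714 genes with 1 copy, −0.22 over the 1043 with 2 and −0.32 over the 720 with 3 or more. Genes with more copies also had longer UTRs, from a median of 886 bases at 0 copies to 5444 bases at 3 or more. Within UTRs of 1000 to 3000 bases, the class in which RAN falls, the medians were 0.06, −0.12, −0.39 and −0.79. They rest on 2820, 1354, 375 and 107 genes, in this order. A part of the word in the level of any single gene was not tested.

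Among the other 9 genes the word was unevenly spread. TNPO1 held 6 copies in a long 3′ UTR of 5715 bases, and KPNB1 held 4 in 3101 bases and NUTF2 2 in 1654 bases, while the remaining 6 genes held 0. The first copies of TNPO1 and KPNB1, at chr5:72205345-72205370 and chr17:45760356-45760381 (both on the plus strand of GRCh37), are printed as examples from the other genes with 3 or more copies.
TNPO1 copy 1: tttttaaagtGCAGTTtaaggttcag
KPNB1 copy 1: tcaagtcattGCAGTTtctttttccc
The log2-fold change was −0.49 for TNPO1, −0.11 for KPNB1 and 0.01 for NUTF2. Over the 6 genes without a copy it lay between −0.19 and 0.23.

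**Figure D2:**
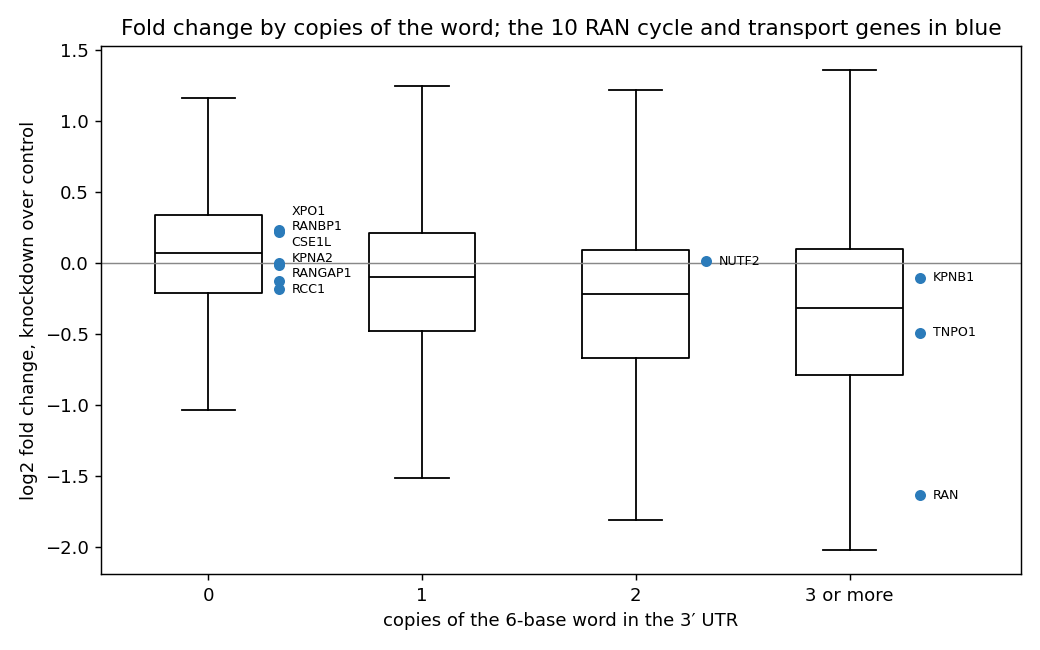
Log2-fold change upon HMGB1 knockdown (y axis) of the 12357 tested genes with a 3′ UTR of 100 bases or more, by the number of copies of the 6-base word in their 3′ UTR (x axis), as boxes from the lower to the upper quartile with a line at the median and whiskers to the last gene within 1.5 box lengths. Blue points are the 10 RAN cycle and transport genes, their names spread out for legibility. The medians step down from 0.07 to −0.32, RAN at −1.63 lies below the lower quartile of its class (−0.79), and KPNB1 at −0.11 lies within its box.

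RCC1 (ENSG00000180198, chromosome 1, 28832455 to 28865812, plus strand), the nucleotide exchange factor bound to chromatin, had 46.3 and 62.4 CPM in control and 42.8 and 52.7 CPM in knockdown libraries. The groups overlapped, and the isolates differed by more (0.43 on the log2 scale between the controls) than the knockdown did. The log2-fold change of RCC1 was −0.19 (SE 0.19, 95% interval −0.67 to 0.30, adjusted p = 0.568). Its exons share 6.22% of their bases with SNHG3 on the same strand. Reads that lie wholly in these bases cannot be assigned to either gene with certainty and may be missing from the counts of RCC1. How they were handled is not given in the sources used here.

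RANGAP1 (ENSG00000100401, chromosome 22, 41641615 to 41682255, minus strand), the GTPase-activating protein on the cytoplasmic side, had 166 and 186 CPM in control against 160 and 163 CPM in knockdown libraries. Both knockdown libraries were lower than both controls, by a small margin. The log2-fold change was −0.13 (SE 0.12, 95% interval −0.42 to 0.17, adjusted p = 0.535).

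RANBP1 (ENSG00000099901, chromosome 22, 20103461 to 20114878, plus strand), which binds RAN-GTP and assists RANGAP1, measured 80.5 and 113 CPM in control and 112 and 114 CPM in knockdown libraries. Only the control library of I90-10 stood apart, at a lower level than the other 3. The log2 difference was 0.47 in I90-10 and 0.01 in I90-79, and the fit gave 0.22 (SE 0.18, 95% interval −0.24 to 0.68, adjusted p = 0.478). Of the exonic bases of RANBP1, 11.2% overlap other genes, chiefly TRMT2A on the opposite strand, and the strand setting used in counting is not given in the sources used here.

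NUTF2 (ENSG00000102898, chromosome 16, 67880635 to 67906470, plus strand), the import carrier of RAN-GDP, had 120 and 115 CPM in control and 126 and 111 CPM in knockdown libraries. The knockdown libraries lay on either side of the controls. Its log2-fold change was 0.01 (SE 0.12, 95% interval −0.29 to 0.31, adjusted p = 0.960).

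KPNB1 (ENSG00000108424, chromosome 17, 45726842 to 45762871, plus strand), importin beta 1, was at 385 and 410 CPM in control and 349 and 390 CPM in knockdown libraries. The groups overlapped slightly, with both isolates lower upon knockdown. The log2-fold change was −0.11 (SE 0.13, 95% interval −0.44 to 0.23, adjusted p = 0.640).

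KPNA2 (ENSG00000182481, chromosome 17, 66031635 to 66042958, plus strand), an importin alpha adaptor that reads classical nuclear localisation signals, had 226 and 321 CPM in control and 259 and 285 CPM in knockdown libraries. Both knockdown values sat between the controls, as KPNA2 was higher upon knockdown in I90-10 and lower in I90-79. The log2-fold change was −0.01 (SE 0.20, 95% interval −0.51 to 0.48, adjusted p = 0.977).

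TNPO1 (ENSG00000083312, chromosome 5, 72112139 to 72212560, plus strand) encodes transportin 1, an import receptor of RNA-binding proteins. Its level was 204 and 226 CPM in control and 135 and 171 CPM in knockdown libraries. Both knockdown libraries were below both controls, with log2 differences of −0.59 in I90-10 and −0.40 in I90-79. The log2-fold change was −0.49 (SE 0.16, 95% interval −0.89 to −0.09, adjusted p = 0.120). With the replicate block it was −0.50 with an adjusted p of 0.00620 in the quasi-likelihood test, which passed the threshold on p but not that on the fold change. RUVs followed by DESeq2 gave −0.62 (adjusted p = 0.000448), a call.

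XPO1 (ENSG00000082898, chromosome 2, 61704984 to 61765761, minus strand), the exportin of leucine-rich export signals and the route by which HMGB1 leaves the nucleus, had 224 and 246 CPM in control and 244 and 309 CPM in knockdown libraries. Each isolate was higher upon knockdown, though the groups overlapped. The log2-fold change was 0.23 (SE 0.16, 95% interval −0.17 to 0.64, adjusted p = 0.387), and it ranged from 0.06 without knockdown replicate 2 to 0.39 without knockdown replicate 1.

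CSE1L (ENSG00000124207, chromosome 20, 47662849 to 47713489, plus strand), the exportin that recycles importin alpha, measured 129 and 176 CPM in control and 135 and 171 CPM in knockdown libraries. Its values split by isolate, I90-79 above I90-10 in both groups. The log2-fold change of CSE1L was 0.00 (SE 0.20, 95% interval −0.51 to 0.51, adjusted p = 0.992), and the replicate block narrowed the interval to −0.20 to 0.23.

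**Figure D3:**
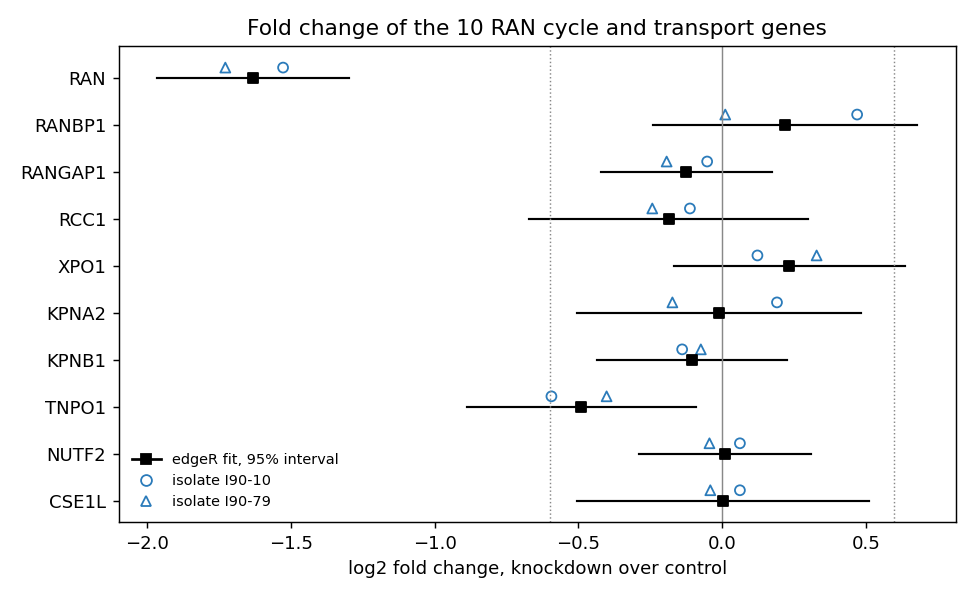
Log2-fold change, knockdown over control (x axis), of the 10 genes (y axis). Squares and bars give edgeR's estimate without the isolate term and its 95% interval, open symbols the difference within each isolate (circles I90-10, triangles I90-79), and dotted lines the fold threshold of 0.6. RAN at −1.63 lies beyond the threshold with its whole interval, the interval of TNPO1 ends at −0.09, and the other 8 intervals include 0.

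Levels of different genes were compared as TPM (read counts corrected for gene length and scaled to a common total, computed here from the counts and the length of each gene's merged exons). In control libraries the mean TPM ordered the genes as KPNA2 (369), RAN (337), KPNB1 (219), CSE1L (173), RANGAP1 (136), NUTF2 (127), RANBP1 (88.9), XPO1 (84.9), TNPO1 (75.8) and RCC1 (59.2). Neighbours whose 2 libraries overlapped were KPNA2 and RAN, CSE1L and RANGAP1, RANGAP1 and NUTF2, RANBP1 and XPO1, and XPO1 and TNPO1. Upon knockdown RAN moved from the second place to the sixth, at a mean of 103 TPM, where it overlapped RANBP1 (97.9). KPNA2 stayed first with 347 TPM, ahead of KPNB1 (193) and CSE1L (165), and TNPO1 (51.3) came to overlap RCC1 (49.3) at the end of the order.

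The balance of RAN with its partners was read within each library as ratios of TPM. RAN stood at 6.21 and 5.32 times the level of its exchange factor RCC1 in the control libraries and at 2.33 and 1.90 times upon knockdown. Against RANGAP1 the ratio was 2.43 and 2.50 in control and 0.873 and 0.862 in knockdown libraries. Against its import carrier NUTF2 it was 2.39 and 2.90 and then 0.795 and 0.902. In TPM, RAN thus lay above RANGAP1, NUTF2 and KPNB1 in control and below them in knockdown libraries. Which gene of a pair lies higher depends on the gene lengths used, while the change of a ratio between libraries does not. In CPM, which leaves out gene length, RAN had 357 and 412 and KPNB1 385 and 410 in control libraries. The ratio of RAN to KPNB1 in TPM fell from 1.48 and 1.60 in control to 0.564 and 0.507 in knockdown libraries. By contrast, the ratio of RANGAP1 to RCC1 kept to its isolates, with 2.56 and 2.13 in control and 2.67 and 2.20 upon knockdown, and that of CSE1L to KPNA2 overlapped between the groups (0.481 and 0.462 against 0.440 and 0.506). Among receptors, the ratio of TNPO1 to KPNB1 was lower (0.339 and 0.353 against 0.247 and 0.281) and that of XPO1 to KPNB1 higher (0.382 and 0.394 against 0.458 and 0.521). RAN made up 20.7% and 19.8% of the summed TPM of the 10 genes in control and 8.05% and 7.34% in knockdown libraries.

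**Figure D4:**
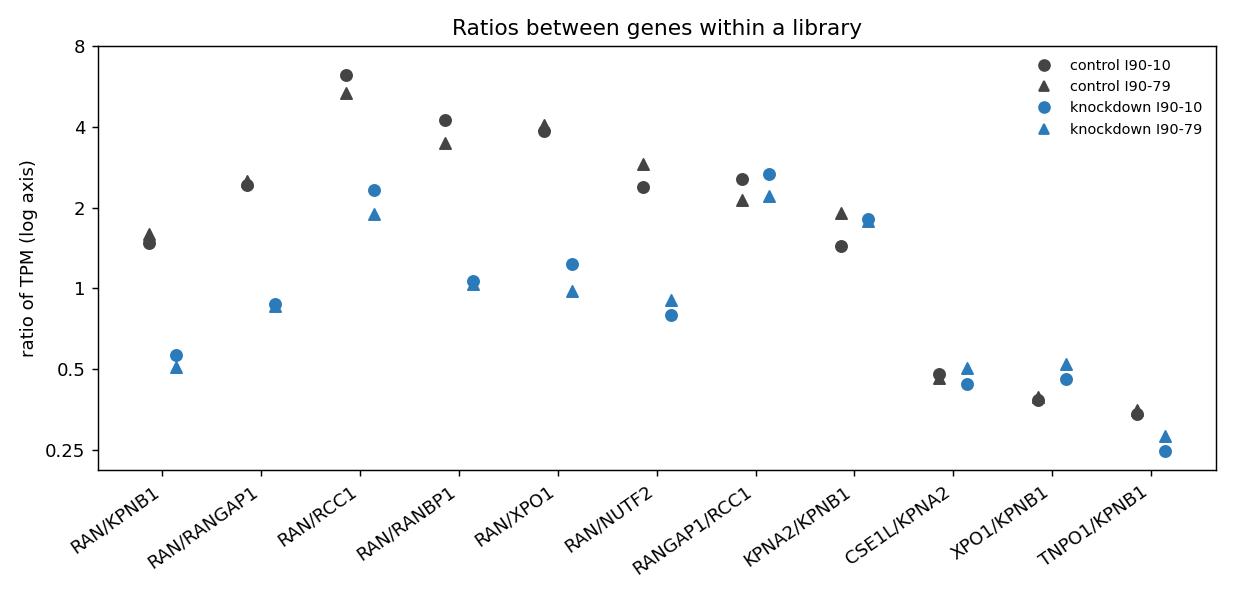
Ratios of TPM between pairs of the 10 genes within each library (y axis, log scale), by pair (x axis), with control libraries in grey and knockdown libraries in blue (circles I90-10, triangles I90-79). All 6 ratios with RAN as numerator are lower in both knockdown libraries, for example from 1.48 and 1.60 to 0.564 and 0.507 over KPNB1, whereas RANGAP1 over RCC1 and CSE1L over KPNA2 overlap between the groups.

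Over the 4 libraries, the pattern of RAN was compared with those of its 9 companions. Likeness was measured as the root mean square difference of log2 CPM after each gene was centred on its mean, so that 0 means an identical pattern. With so few libraries this measure largely follows the fold changes already given, so the order below is a description and no separate evidence of a shared pattern. The closest pairs among the 10 genes were RANGAP1 with KPNB1 (0.054), KPNA2 with CSE1L (0.074) and RCC1 with CSE1L (0.095), and the farthest were RAN with RANBP1 (0.940) and RAN with XPO1 (0.935). TNPO1 was the nearest of the 9 to RAN, at 0.578. Among all the transport genes listed here, the 3 nearest to RAN were KPNA3 (0.300), RANBP6 (0.338) and RANBP3L (0.427). The place of RANBP3L rests on 10, 12, 1 and 0 counts and on the prior count of 2 added before the logarithm, so its likeness to RAN is uncertain.

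The wider transport machinery was read from 81 further genes, of which 80 were matched to the count tables and 78 passed the filter on low counts. None of the 78 was called without the isolate term, while 21 had an unadjusted p below 0.05, 13 of them higher and 8 lower upon knockdown. With the replicate block, 7 were upregulated and 3 downregulated, a share close to the 14.5% of all genes called in that fit. The calls in each list below, also where there are 0, are to be read against this share and the 0.201% called without the isolate term. Of the 78, 53 had a fold change above 0 and 25 below it, and the median log2-fold change was 0.11. Over all 15398 genes tested, 7642 lay above 0 and 7756 below it. The directions in each list below are to be read against these numbers.

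The importin alpha adaptors other than KPNA2 were tested in 5 cases, as KPNA7 had at most 1 read a library. KPNA3 had 127 and 114 CPM in control and 58.5 and 54.3 CPM in knockdown libraries, so both knockdown libraries were far below the controls. Its log2-fold change was −1.09 (SE 0.12, adjusted p = 0.0142), and KPNA3 fell by 1.09 when the isolate was blocked (adjusted p = 0.000161 from the quasi-likelihood test). KPNA5 (log2-fold change 0.62, adjusted p = 0.107) and KPNA1 (−0.27, adjusted p = 0.166) passed in neither fit. Of the summed TPM of all importin alpha genes, KPNA3 gave 19.7% and 14.9% in control and 9.52% and 8.33% in knockdown libraries, and KPNA2 gave 50.2% and 59.8% against 59.9% and 62.2%. GCAGTT occurs 2 times in the 3′ UTRs of KPNA3, KPNA4 (log2-fold change −0.02) and KPNA5, and 1 time in those of KPNA1 and KPNA6 (0.01).

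Among 11 other import receptors, 0 were called without the isolate term, where 0.201% of all genes were. With the replicate block 4 were called, 2 in each direction, where 14.5% of all genes were. The median log2-fold change was 0.04. RANBP6, a close relative of the ribosomal protein importer IPO5, had 59.3 and 57.5 CPM in control and 29.2 and 30.1 CPM in knockdown libraries, a log2-fold change of −0.98 (SE 0.11, adjusted p = 0.0149). IPO8, an importer linked to Argonaute and SMAD proteins, had 83.3 and 78.3 CPM and then 42.9 and 50.02 CPM, a log2-fold change of −0.80 (SE 0.13, adjusted p = 0.0292). In contrast, IPO13, which works as importer and exporter, went from 35.9 and 35.7 CPM to 67.1 and 64.1 CPM, a log2-fold change of 0.87 (SE 0.11, adjusted p = 0.0177). For each of these genes the groups did not overlap, as was so for 59.9% of all genes tested. With the replicate block RANBP6 (adjusted p = 0.000340) and IPO8 (0.00132) were downregulated, and IPO13 (0.000496) was upregulated. IPO7, named after its values were seen because it completes the calls of this list, was upregulated in that fit as well (log2-fold change 0.79, adjusted p = 0.000644). The other 7 import receptors were called in neither fit. GCAGTT occurs 2 times in the 3′ UTR of IPO8, 1 time in those of RANBP6 and IPO7 and 0 times in that of IPO13.

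Export receptors other than XPO1 and CSE1L gave 0 calls among 6 genes in either fit. XPO6, the exportin of profilin and actin, had 197 and 193 CPM in control and 143 and 140 CPM in knockdown libraries, both below the controls. Its log2-fold change was −0.46 (SE 0.11, adjusted p = 0.0618), and 0.00632 with the replicate block, where its fold change stayed under the threshold. XPO7 (0.17) and XPOT (−0.16), the exportin of tRNA, had adjusted p-values of 0.348 and 0.414. GCAGTT occurs 0 times in the 3′ UTR of XPO6 and 2 times in that of XPO4 (log2-fold change −0.124).

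Other RAN-binding proteins and the SUMO factors that modify RANGAP1 also gave 0 calls among 6 genes. RANBP3L was counted 10 and 12 times in the control libraries and 1 and 0 times in the knockdown libraries, at least 3.33-fold lower when the knockdown is set at a floor of 3 counts per library (adjusted p = 0.0644). This bound allows for counting error in the knockdown libraries only, with the mean of the controls taken as exact. The 3′ UTR of RANBP3L holds 0 copies of GCAGTT. RANBP3, a cofactor of XPO1, and RANGRF, a RAN-binding factor, had log2-fold changes of 0.19 and 0.34 (adjusted p = 0.327 and 0.424).

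Of 15 mRNA export factors, 11 had a fold change above 0, with a median of 0.12. The RNA helicase DDX39A had 38.5 and 61.0 CPM in control and 79.5 and 88.1 CPM in knockdown libraries, higher in both isolates. The groups of DDX39A did not overlap, which held for 59.9% of all genes tested. The log2-fold change of DDX39A, 0.75 (SE 0.23), had an adjusted p of 0.111, and of 0.00331 with the replicate block. It was the only gene of this list called in that fit. DDX19A (0.33) and NXT1 (0.58), the partner of the export receptor NXF1, had adjusted p-values of 0.125 and 0.137.

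Nucleoporins, the building blocks of the pore, were above 0 for 23 of the 28 tested, with a median log2-fold change of 0.19. Over all genes, 7642 of the 15398 tested were above 0. NUP50, a mobile nucleoporin that binds importin alpha, had 70.3 and 74.2 CPM in control and 108 and 122 CPM in knockdown libraries, a log2-fold change of 0.67 (SE 0.12, adjusted p = 0.0351). NUP58, of the central channel, had 57.8 and 78.3 CPM and then 110 and 132 CPM, a log2-fold change of 0.83 (SE 0.19, adjusted p = 0.0574). The scaffold nucleoporin NUP93 was lower, with 57.7 and 60.2 CPM in control and 40.2 and 37.8 CPM in knockdown libraries, a log2-fold change of −0.60 (SE 0.11, adjusted p = 0.0406). With the replicate block 4 of the 28 nucleoporins were upregulated, a share near the 14.5% of all genes called in that fit. These were NUP50 (adjusted p = 0.00138), NUP58 (0.000590) and, named after their values were seen, NUP35 (0.00558) and NDC1 (0.00765). None was downregulated, as the log2-fold change of NUP93 (−0.60, adjusted p = 0.00326) remained just short of the threshold. The 3′ UTR of NUP93 holds 5 copies of GCAGTT, and those of the 4 upregulated nucleoporins hold 0 or 1. NUP214 holds 2 copies with a log2-fold change of 0.001, NUP188 (−0.383) and NUP43 (0.455) hold 1 each, and NUP54 (−0.233) holds 0. A part of the word in these levels was not tested.

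RAN-GTP also frees spindle factors such as TPX2 from importins in mitosis, and these gave 0 calls among 7 genes in either fit. TPX2 itself had a log2-fold change of 0.39 (adjusted p = 0.331), DLGAP5 of −0.34 (adjusted p = 0.476) and NUSAP1 of 0.23 (adjusted p = 0.675). Because several of the genes above are abundant in dividing cells, 17 proliferation genes were set beside them. Their summed level was 833 and 1450 CPM in control and 977 and 1176 CPM in knockdown libraries, higher in I90-79 than in I90-10 in both groups and with the knockdown libraries between the controls. None was called without the isolate term. PCNA, the sliding clamp of DNA polymerases, had 90.1 and 121 CPM in control and 51.7 and 53.5 CPM in knockdown libraries (log2-fold change −1.01, SE 0.17, adjusted p = 0.0320), and it was the 1 gene downregulated with the replicate block (adjusted p = 0.000607). RUVs followed by DESeq2 called PCNA and, named after their values were seen, MKI67 (log2-fold change −0.79), TOP2A (−0.88) and MCM2 (−0.79) as downregulated and MCM7 as upregulated. MCM7, of the replicative helicase, was the 1 gene upregulated with the replicate block (log2-fold change 0.96 without and 1.01 with the block, adjusted p = 0.121 and 0.00124). The third by p, MCM6, had a log2-fold change of −0.31 (adjusted p = 0.204).

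**Figure D5:**
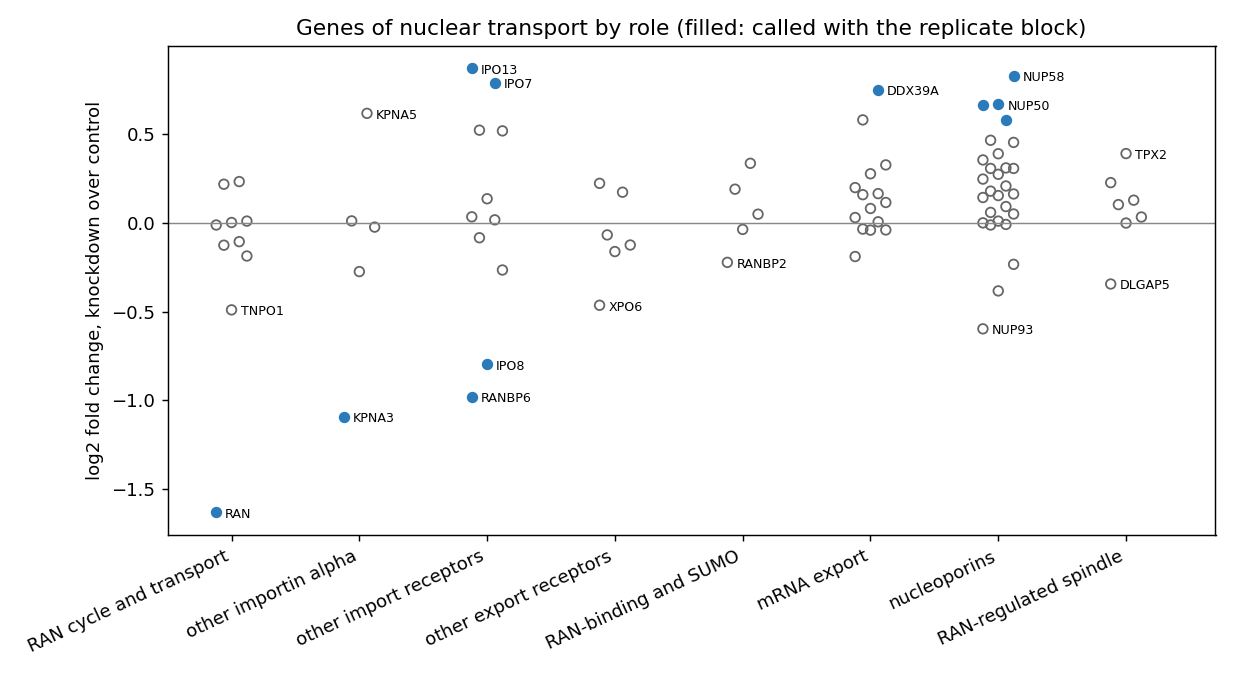
Log2-fold change without the isolate term, knockdown over control (y axis), of the tested transport genes, grouped by role (x axis), with 1 point a gene and filled points for genes called with the replicate block. RANBP3L, whose knockdown libraries held 1 and 0 counts, is not drawn. RAN, KPNA3, RANBP6 and IPO8 are the filled points below 0, and 7 filled points, among them IPO13 and 4 nucleoporins, lie above it.

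Sorted by copies of GCAGTT, the 75 further transport genes with a 3′ UTR of sufficient length had a median log2-fold change of 0.14 at 0 copies (58 genes, 42 of them above 0), 0.01 at 1 copy (9 genes) and −0.07 at 2 or more (8 genes, 5 of them below 0). HMGB1, the target of the siRNA, holds 3 copies in its own 3′ UTR. Since the word came from a search of these same libraries, these numbers too are a description and no separate evidence. The length of the UTR was not held fixed here, and a part of the word in these levels was not tested.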

How the data were processed

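Poly(A) RNA of the 4 IMR90 libraries was made into TruSeq libraries and paired-end sequenced. The authors mapped reads to hg19 with STAR at default settings and deposited raw counts of unique reads per gene from featureCounts. Tool versions, strand setting and whether pairs were counted once are not given in the sources used here. From the deposited counts, 15398 genes passed edgeR's filterByExpr and were tested with the quasi-likelihood test (edgeR 4.0.16, R 4.3.3) after TMM scaling, with Benjamini-Hochberg adjustment over all of them. Calls used the study's thresholds, an adjusted p under 0.01 with a log2-fold change over 0.6 in either direction. SE is the absolute log2-fold change over the square root of F. Same-numbered libraries share an isolate, so the numbers pair the libraries: the isolate differences of the control and of the knockdown libraries correlated with r = 0.464 across 15398 genes, which are not independent. The isolate therefore enters as a replicate block in an alternative fit. With 2 libraries against 2 an exact permutation test cannot give a p below 0.333. The genes and lists were chosen with earlier results of these data known. Named genes are the 10 of the set, HMGB1, the 3 with the smallest p in each list, called genes, and the 3 most like RAN. Of the genes in the files 55665 had a symbol, and POM121C and PECAM1 were not matched. The fit was also run on simulated data with 200 changed genes, and no outcome of that run is used here. Alternatives were DESeq2 1.42.0, RUVs with 1 factor (written out from its published description, since the number of factors is not given) followed by DESeq2, other scalings and filters, and leaving out each library. UTR sequences are from GENCODE v44 lifted to GRCh37.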

Additional observations from a re-analysis of the deposited data

Results flagged for a closer look

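KPNA2, NUTF2 and CSE1L were marked because the 2 isolates moved in opposite directions upon HMGB1 knockdown. The log2 difference of CPM between knockdown and control was 0.19 for KPNA2 in I90-10 and −0.17 in I90-79. For NUTF2 it was 0.062 and −0.044, and for CSE1L 0.062 and −0.041. Each isolate had 1 library a group, so the difference between isolates was not tested, and 3350 of the 15398 genes tested (21.8%) likewise moved in opposite directions.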

How the results depend on the processing

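Of all genes, 31 were called, and the count was 1542 with DESeq2, 1595 with RUVs followed by DESeq2, 129 (31 up and 98 down) with library totals in place of TMM, 2393 without the filter, 2235 with the replicate block and 1299 at an adjusted p below 0.05 with any fold change. The number of the 10 RAN cycle and transport genes called was 0, against 2 with RUVs and 1 (RAN) in each of the other 5 of these settings. Of the further transport genes 0 were called, against 7 with DESeq2, 7 with RUVs, 8 without the filter, 10 with the replicate block and 8 at an adjusted p below 0.05. Size factors of DESeq2 in edgeR and a minimum of 10 counts in every library moved none of these counts by over 1.5 times. Leaving out 1 library gave 0 to 642 calls over all genes (299 without control replicate 1, 642 without control replicate 2, and 0 without either knockdown replicate), 0 to 1 among the 10 genes and 0 to 3 among the further transport genes. There the lone library is assumed to vary like the other group. The median log2-fold change of the 10 genes, −0.06, ranged from −0.205 to 0.011 when 1 library was left out. The cause of these shifts was not tested.

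RAN kept its direction in all 12 settings, with log2-fold changes from −1.73 to −1.53 and adjusted p-values from 1.73e-29 to 0.0633, and was called in 8, including library totals alone (−1.68, adjusted p = 0.00902) and leaving out either control replicate. The sign changed under some setting for 5 of the 10 genes. CSE1L (0.00) was −0.19 with RUVs, −0.04 with library totals and −0.004 with the minimum of 10 counts, and leaving out 1 library gave −0.20 to 0.24. NUTF2 (0.01) was −0.029 with library totals and ranged from −0.082 to 0.101 when a library was left out. KPNA2 (−0.01) was 0.009 with the replicate block and −0.24 to 0.26 without single libraries, RANBP1 (0.22) −0.008 to 0.488, and RCC1 (−0.19) −0.387 to 0.046. Without a change of sign, XPO1 (0.23) ranged from 0.057 to 0.394, RANGAP1 (−0.13) from −0.206 to −0.039, KPNB1 (−0.11) from −0.182 to −0.031 and TNPO1 (−0.49) from −0.668 to −0.331 when a library was left out. Library totals shifted the median of all genes to −0.04. Apart from RAN, the replicate block changed no call among the 10 genes.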
